A study of Caenorhabditis elegans with 8 samples.

Results

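Cell adhesion genes of the immunoglobulin and cadherin classes were followed in 8 RNA sequencing libraries made from sorted neurons of the nematode Caenorhabditis elegans. The members are the genes whose name in the count table begins with zig, rig, cdh or igcm and a number, together with hmr-1, fmi-1, sax-7, lad-2, ncam-1, casy-1, syg-1 and syg-2. This gave 36 of 46748 genes, namely 10 zig, 5 rig, 9 cdh and 4 igcm genes and the 8 genes taken by name. The rule used no measured value. T17A3.10 and M02D8.1, which the annotation calls zig-13 and zig-12, stand in the table under their sequence names and are not members.

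All worms were untreated, of strain OH10689, and carried otIs355, in which red fluorescent TagRFP with nuclear localisation signals is under a promoter of rab-3, a gene of synaptic vesicle traffic. Fluorescent cells were sorted into Trizol LS, so the cells taken depend on where that promoter is active. RNA of 4 samples was each split, one portion going into a SoLo Ovation library and the other into a SMARTseq V4 library finished with Nextera XT, giving 4 libraries per kit that share the numbers 1 to 4. As background, SMARTseq V4 primes cDNA synthesis on the poly(A) tail, while SoLo does not need the tail and removes ribosomal fragments. No label ties the 4 RNA samples to separate cultures or sorts, so a p-value here covers only how these 4 samples vary, and that variation may be technical.

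Immunoglobulin and cadherin proteins let neighbouring cells recognise and hold each other. Cadherins bind cadherins of the next cell through repeated calcium-dependent domains and pass the force to actin through catenins. Immunoglobulin proteins bind like or unlike partners, and in the worm nervous system they sort axons into bundles, choose synaptic partners and keep axons and cell bodies in place while the animal grows and moves.

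SoLo libraries held 2354681 to 3454199 gene counts and SMARTseq libraries 4510927 to 7099497. The 12 neuronal marker genes were all present, with summed levels of 15560 to 21780 counts per 1000000 gene counts (CPM) in SoLo and 23890 to 31720 CPM in SMARTseq. Most of these sums came from egl-3, egl-21 and sbt-1, and of the 12 genes 7 were called towards SoLo and 3 towards SMARTseq, with a median log2 fold change of 0.59. Markers of other cells were present as well, most of all 12 muscle genes, with 6259 to 7669 CPM in SoLo and 3957 to 5429 CPM in SMARTseq. Most of the muscle sum came from 1 gene, unc-54, with 5182 to 6899 CPM in SoLo and 3195 to 4846 CPM in SMARTseq. In SoLo the other marker lists summed to 35.3 to 72.6 CPM for glia, 158 to 314 for hypodermis and seam, 307 to 521 for intestine, 227 to 361 for germline and 360 to 423 for gonadal sheath, excretory cell and coelomocytes. In SMARTseq the same lists summed to 178 to 210, 346 to 1491, 142 to 254, 288 to 535 and 671 to 827 CPM. The part of these other cells in the kit differences of the members was not tested. Of their genes ver-1 and nhr-73 had no read in any library. RNA sample 1 stood apart from RNA samples 2 to 4 in both kits. Between libraries of a kit, the mean chi-square per gene over genes with at least 40 reads was 36.0 to 38.9 for SoLo pairs with library 1 and 2.48 to 3.85 for the other SoLo pairs, and at least 103.1 for SMARTseq pairs with library 1 and at most 12.6 for the other SMARTseq pairs. No 2 libraries therefore agreed within sampling noise, for which that mean is near 1.

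The members are all protein-coding and differ widely in size. The zig genes, named for their pair of immunoglobulin domains, have 747 to 1259 exonic bases, and the cdh genes 2219 to 13422. Among the others hmr-1 has 9986, fmi-1 8070 and sax-7 6223 exonic bases. On the X chromosome lie 14 of the 36 members, among them all 4 igcm genes, and zig-4 and zig-3 lie there on the same strand, 4154 bases apart. By annotation, at most 6.18% of the exonic bases of a member, in zig-1, lie under exons of a gene on the opposite strand. On the same strand the largest share is 2.93%, in igcm-4. The share of reads that came from overlapping genes was not tested.

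SoLo libraries contained relatively less of 4 short zig genes, of sax-7, ncam-1, igcm-4 and 2 rig genes and of the cadherin gene fmi-1, and relatively more of the long cadherin genes cdh-1 and hmr-1 and of zig-10. The difference of hmr-1 turned under an offset for exonic length. Of the 36 members 32 passed the filter on low counts and were tested with edgeR on the whole table, at an adjusted p under 0.05. The SoLo libraries were higher for 3 of these 32, and the SMARTseq libraries for 10. Over all 11378 tested genes 20.0% were called towards SoLo and 27.6% towards SMARTseq. The members' share of 31.2% towards SMARTseq is near this background and their share of 9.38% towards SoLo below it, without a test of that difference. The gap towards SoLo moved with the fit. Scaling by library totals called 12 of 32 members against 38.0% of all tested genes, and DESeq2 6 of 34 against 17.7%. The offset for exonic length called 3 of 32 against 25.6%, and other fits are given below. In the main fit the 3 genes towards SoLo were cdh-1, hmr-1 and zig-10. The 10 genes towards SMARTseq were zig-4, zig-2, zig-8, rig-5, ncam-1, zig-7, sax-7, igcm-4, rig-3 and fmi-1. Among the 32 tested members, levels did not overlap between the kits for 4 that were above in all SoLo libraries. The same held for 10 that were above in all SMARTseq libraries. Over all tested genes these shares were 21.2% and 25.0%.

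With the RNA sample number as a block the counts became 7 towards SoLo and 12 towards SMARTseq (28.9% and 32.2% of all tested genes), and every one of the 13 calls was kept. The 6 added calls were rig-6, syg-2, zig-1 and cdh-4 towards SoLo and zig-3 and zig-5 towards SMARTseq. Without RNA sample 1 the counts were 6 and 12 (26.2% and 32.2%). With RNA samples 2 to 4 summed they were 1 and 4 (3.39% and 5.89%), and the 5 calls kept were cdh-1, zig-2, zig-8, rig-5 and ncam-1. Scaling by library totals alone put the median over all tested genes at 0.56, against 0.01 under TMM. It called 12 members towards SoLo and 6 towards SMARTseq, as it did 4318 and 2388 of the 11378 genes, and the 4 calls it lost were sax-7, igcm-4, rig-3 and fmi-1. Fold changes below are log2(SoLo/SMARTseq) ± SE under TMM, with n = 4 libraries per kit, and are relative to the bulk of genes.

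**Figure D1:**
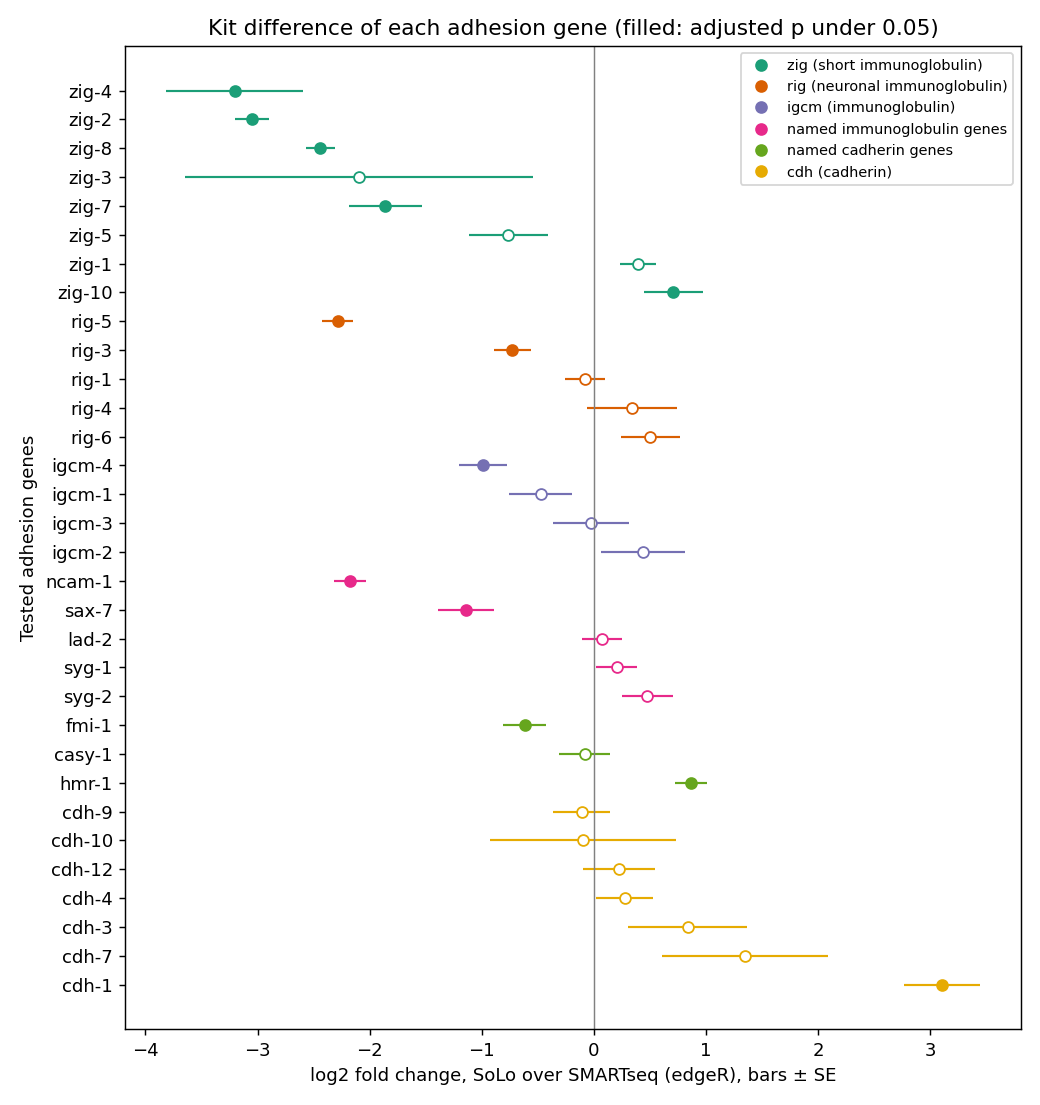
Log2 fold change, SoLo over SMARTseq, of the 32 tested adhesion genes (horizontal axis, bars ± SE, n = 4 libraries per kit), grouped by family down the page. Filled points passed edgeR's adjusted threshold: 3 lie right of 0, cdh-1 farthest at 3.10, and 10 lie left of it, zig-4 farthest at -3.21.

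The zig family encodes small immunoglobulin proteins, most of them secreted, and several are needed in the worm to keep ventral cord axons in position after development. Of the 10 zig genes 8 were tested, and 1 was higher in SoLo and 4 in SMARTseq. zig-2, at chromosome X 12340377 to 12341438, had 354, 267, 273 and 281 CPM in SoLo libraries 1 to 4, against 2813, 2341, 2316 and 2243 CPM in SMARTseq libraries 1 to 4. The kits were far apart for zig-2, and the libraries within each kit close together. The difference for zig-2 was -3.05 ± 0.15 (edgeR adjusted p = 7.84e-07). zig-8, at chromosome III 13119820 to 13133938, encodes a protein related to the Dpr family of Drosophila. Its levels were 80.1, 72.8, 77.6 and 76.5 CPM in SoLo and 373, 440, 423 and 430 CPM in SMARTseq, a difference of -2.44 ± 0.13 in log2 (edgeR adjusted p = 9.81e-07). All SoLo values of zig-8 were thus close to each other and below every SMARTseq value.

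zig-4, at chromosome X 7925434 to 7926595, is one of the genes that hold axons in place. It had 305, 74.9, 81.7 and 69.9 CPM in SoLo and 2441, 841, 852 and 770 CPM in SMARTseq. Library 1 was the highest in each kit, and the kits did not overlap. The log2 fold change of zig-4 was -3.21 ± 0.61 (edgeR adjusted p = 0.00194), and -3.99 without SoLo library 1. zig-7 was low, with 3.05, 4.28, 2.66 and 4.89 CPM in SoLo and 16.3, 14.4, 9.72 and 13.5 CPM in SMARTseq. It did not overlap between the kits either, at -1.86 ± 0.33 (edgeR adjusted p = 0.00122).

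The only zig gene called towards SoLo was zig-10, which acts in synapse elimination, and its call was borderline. Its levels were 19.4, 26.03, 29.7 and 24.1 CPM in SoLo, against 20.5, 10.9, 13.1 and 16.2 CPM in SMARTseq. The 2 libraries of RNA sample 1 were close to each other, and the SoLo library was above its SMARTseq partner in the other 3 pairs. The log2 fold change of zig-10 was 0.71 ± 0.26 (edgeR adjusted p = 0.0499), and 6 of the 8 fits with 1 library left out lost the call, those without any of libraries 2 to 4 of either kit, with adjusted p up to 0.119. zig-1, whose protein spans the membrane, had 57.4 to 76.7 CPM in SoLo, against 48.5 to 56.5 CPM in SMARTseq. These ranges did not overlap, but the difference of 0.39 ± 0.16 missed the threshold (edgeR adjusted p = 0.0686, and 0.0364 with the block), and passed it without SoLo library 1 at 0.51. With RNA samples 2 to 4 summed and the block it was not called, at 0.41 (edgeR adjusted p = 0.112).

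For zig-3 and zig-5 library 1 lay far above the others in each kit. zig-3, the X-chromosome neighbour of zig-4 (7930750 to 7931808), had 75.1, 0.713, 1.45 and 1.40 CPM in SoLo and 298, 12.8, 14.8 and 12.1 CPM in SMARTseq. The SoLo values came from 271, 2, 6 and 4 reads, so those of libraries 2 to 4 were near the floor. Within every pair of one number SoLo was lower, although the kits overlapped. The log2 fold change of zig-3 was -2.09 ± 1.55 (edgeR adjusted p = 0.297), became -6.06 and was called without SoLo library 1, and turned to 0.57 without SMARTseq library 1. With the block it was -2.56 ± 0.28 (edgeR adjusted p = 5.46e-06). zig-5, which acts in axon maintenance like zig-8, had 240, 113, 124 and 123 CPM in SoLo and 439, 206, 175 and 197 CPM in SMARTseq. It too was lower in SoLo in 4 of 4 pairs, with -0.76 ± 0.35 (edgeR adjusted p = 0.102), a called -1.05 without SoLo library 1, and -0.73 ± 0.10 with the block (edgeR adjusted p = 6.38e-05). The remaining pair, zig-6 and zig-9, was not tested, with 1 and 17 reads over all SoLo libraries and 9 and 11 reads over all SMARTseq libraries.

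**Figure D2:**
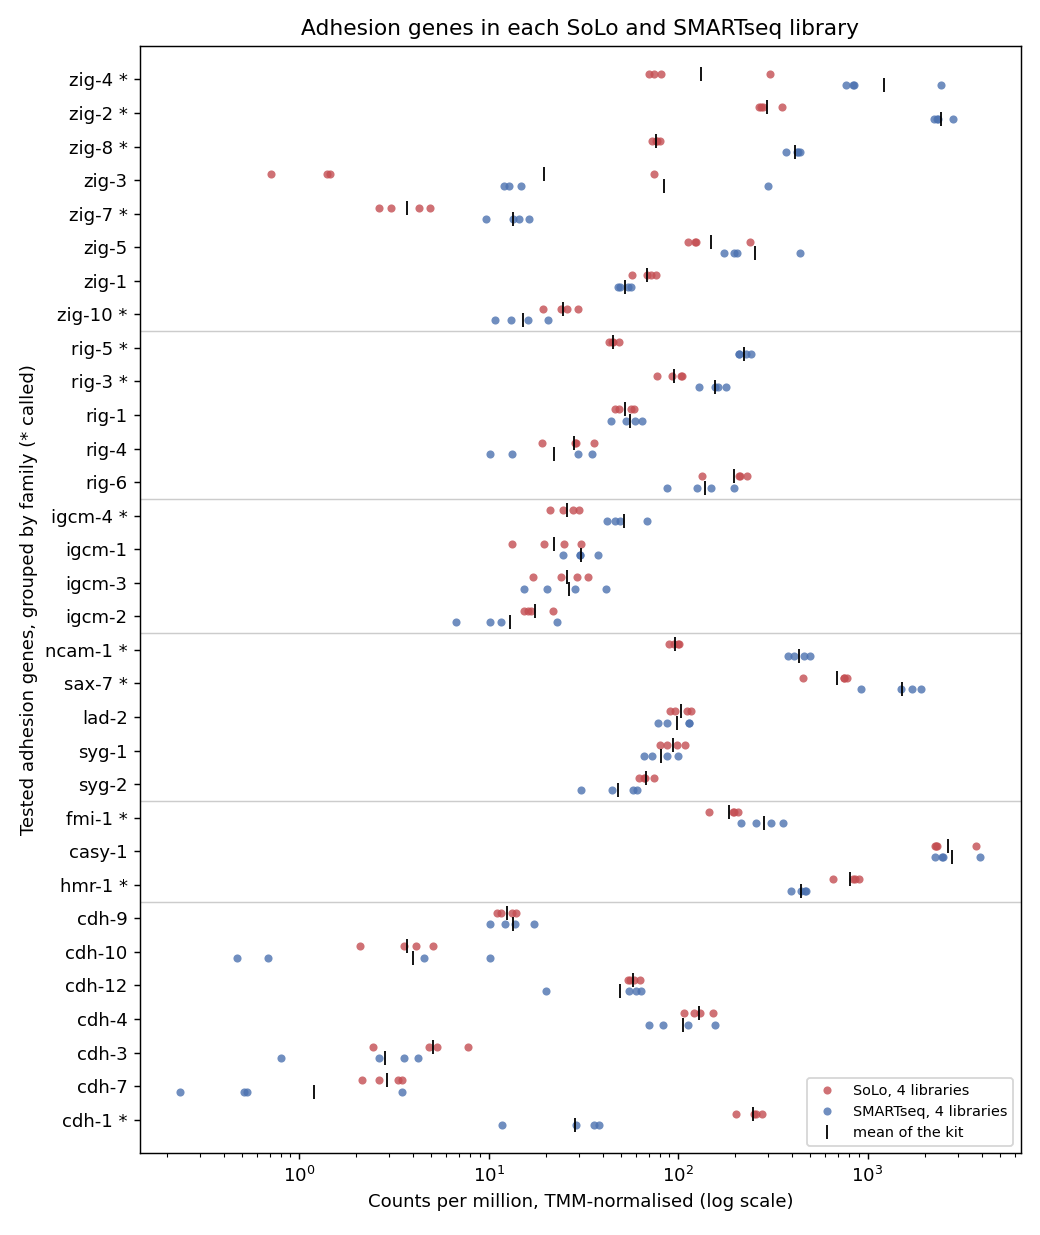
CPM (log scale) of each tested adhesion gene in the 4 SoLo libraries (upper row of each gene) and the 4 SMARTseq libraries (lower row), with the mean of each kit as a black tick and called genes starred. For zig-2 the SoLo points lie between 267 and 354 CPM and the SMARTseq points between 2243 and 2813, and for cdh-1 the order is reversed, with 202 to 277 and 11.8 to 38.3 CPM.

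The rig genes encode immunoglobulin proteins expressed in neurons. Of 5 tested, 2 were called, both towards SMARTseq. rig-5, at chromosome I 9565389 to 9574377, is the worm relative of the DIP proteins that bind Dpr partners in Drosophila, and its protein binds that of zig-8. It had 48.8, 44.6, 45.7 and 43.0 CPM in SoLo against 242, 228, 210 and 209 CPM in SMARTseq, a difference of -2.29 ± 0.14 in log2 (edgeR adjusted p = 1.6e-06). Both partners, rig-5 and zig-8, were thus lower in SoLo in 4 of 4 pairs. rig-3, which encodes a membrane-anchored protein that restrains acetylcholine receptor signalling at the neuromuscular junction, was lower in SoLo by less. Its levels were 77.6, 104.5, 93.0 and 103.8 CPM in SoLo and 129, 180, 162 and 157 CPM in SMARTseq, with -0.73 ± 0.17 (edgeR adjusted p = 0.00518).

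rig-6, the worm contactin, had 134, 213, 210 and 232 CPM in SoLo and 88.0, 149, 125 and 196 CPM in SMARTseq. Library 1 was the lowest of rig-6 in each kit, so that the kits overlapped while each SoLo library exceeded its partner. The log2 fold change of 0.50 ± 0.26 missed the threshold (edgeR adjusted p = 0.145), and passed it with the block (edgeR adjusted p = 0.0013) and, at 0.69, without SoLo library 1. For rig-1 and for rig-4, a relative of the vertebrate sidekick proteins, the values were -0.08 ± 0.18 and 0.34 ± 0.40, neither of them past the threshold. That of rig-1 was 0.46 with library totals as the only scaling, which was called (edgeR adjusted p = 0.0488), and -0.79 under an offset for exonic length, which was called towards SMARTseq (edgeR adjusted p = 0.00532).

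Of the 4 igcm genes, which encode further immunoglobulin cell adhesion proteins, 1 was higher in SMARTseq. That gene, igcm-4 at chromosome X 2039397 to 2046360, had 29.9, 21.04, 28.0 and 24.8 CPM in SoLo and 49.3, 68.8, 42.0 and 46.6 CPM in SMARTseq. The kits did not overlap, and the log2 fold change was -0.99 ± 0.21 (edgeR adjusted p = 0.00402). igcm-3 had 17.2, 24.2, 29.2 and 33.5 CPM in SoLo and 20.4, 41.6, 28.6 and 15.4 CPM in SMARTseq, so that the SoLo range lay within the SMARTseq range. igcm-1 had 13.3, 25.0, 30.9 and 19.6 CPM in SoLo and 37.8, 24.6, 30.6 and 30.4 CPM in SMARTseq. Their log2 fold changes were -0.02 ± 0.34 and -0.47 ± 0.28, and that of igcm-2 was 0.44 ± 0.37, which became a called 0.87 without SMARTseq library 1.

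Among the immunoglobulin genes taken by name, ncam-1 and sax-7 were lower in SoLo and the other 3 were not called. ncam-1, the worm relative of the neural cell adhesion molecule, lies at chromosome X 691913 to 703047. It had 99.5, 102, 95.0 and 90.1 CPM in SoLo and 410, 460, 495 and 380 CPM in SMARTseq, a difference of -2.18 ± 0.14 in log2 (edgeR adjusted p = 2.41e-06). The kits did not overlap for ncam-1, which has 4653 exonic bases. sax-7, the L1-type adhesion protein that keeps neurons and their processes in place, lies at chromosome IV 8062659 to 8084087. Its levels were 459, 754, 754 and 784 CPM in SoLo, against 921, 1722, 1908 and 1504 CPM in SMARTseq. Library 1 was the lowest in each kit, and yet the kits did not overlap, with -1.14 ± 0.25 (edgeR adjusted p = 0.00447).

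The second L1-type gene, lad-2, had 117, 90.9, 95.9 and 111 CPM in SoLo and 114, 87.7, 114 and 78.1 CPM in SMARTseq. Its difference of 0.07 ± 0.18 was smaller than its error. syg-1 and syg-2 encode the receptor and its partner that place the synapses of the HSN neuron next to guidepost cells. syg-1 had 80.4, 87.4, 98.6 and 109 CPM in SoLo and 99.6, 72.8, 87.1 and 66.0 CPM in SMARTseq, overlapping ranges, with 0.20 ± 0.18. The levels of syg-2 were 62.4, 66.7, 66.4 and 74.4 CPM in SoLo and 44.7, 30.7, 57.8 and 60.9 CPM in SMARTseq. These ranges just cleared each other, while the log2 fold change of 0.48 ± 0.23 missed the threshold (edgeR adjusted p = 0.111, and 0.0209 with the block).

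Among the cadherins cdh-1 stood out towards SoLo. cdh-1, at chromosome III 2910906 to 2935961, belongs with the Dachsous-type cadherins. It had 202, 253, 277 and 259 CPM in SoLo and 35.9, 11.8, 38.3 and 28.8 CPM in SMARTseq, so that the lowest SoLo library was above the highest SMARTseq library. The log2 fold change was 3.10 ± 0.34 (edgeR adjusted p = 5.96e-05), or 8.60-fold. cdh-4, a Fat-type cadherin with roles in axon fasciculation and the longest member with 13422 exonic bases, had 107, 131, 154 and 121.9 CPM in SoLo and 70.3, 113, 157 and 83.8 CPM in SMARTseq. Those ranges overlapped, and 0.28 ± 0.25 missed the threshold (edgeR adjusted p = 0.401, and 0.0484 with the block). cdh-12 had 55.7, 54.6, 63.1 and 58.7 CPM in SoLo and 64.0, 54.8, 20.1 and 59.8 CPM in SMARTseq. Only SMARTseq library 3 was low for cdh-12, and the log2 fold change of 0.22 ± 0.32 became -0.06 without it.

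The other cdh genes were low. cdh-9 had 11.1 to 14.0 CPM in SoLo, against 10.2 to 17.3 CPM in SMARTseq, with a difference of -0.11 ± 0.25. The log2 fold changes of cdh-3, cdh-7 and cdh-10, with means of 5.10, 2.90 and 3.72 CPM in SoLo and 2.83, 1.195 and 3.995 CPM in SMARTseq, were 0.84 ± 0.53, 1.35 ± 0.74 and -0.10 ± 0.83, and all missed the threshold. cdh-10 had 0.473 and 0.685 CPM in SMARTseq libraries 2 and 1 but 10.2 CPM in library 3. For cdh-7 the only SMARTseq library at the SoLo level was library 4, with 13 of the 20 reads. cdh-7 had 12, 6, 11 and 10 reads in SoLo libraries 1 to 4, and so passed the filter on low counts through SoLo. Without SMARTseq library 4 it was called at 2.61, on few reads and in the direction which that filter favours. cdh-5 and cdh-8 were not tested, having 50 and 38 reads over the SoLo libraries and 15 and 8 over the deeper SMARTseq libraries.

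hmr-1 is the classical cadherin of the worm, found in epithelial junctions and, through a separate isoform, in neurons. It lies at chromosome I 11075755 to 11134667. Its levels were 654, 837, 857 and 902.5 CPM in SoLo and 469, 396, 476 and 445 CPM in SMARTseq, a difference of 0.86 ± 0.14 in log2 (edgeR adjusted p = 0.000804). Every SoLo library of hmr-1 was above every SMARTseq library, but an offset for exonic length turned the value to -0.17. fmi-1, the Flamingo-type cadherin that guides pioneer and follower axons, went the other way with 145, 206, 196 and 196 CPM in SoLo and 310, 216, 358 and 257 CPM in SMARTseq. The kits did not overlap, at -0.62 ± 0.19 (edgeR adjusted p = 0.0246), but 5 of the 8 fits with 1 library left out, those without any SoLo library or without SMARTseq library 3, lost the call of fmi-1, with adjusted p up to 0.0694.

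casy-1, the calsyntenin of the worm and a cadherin-repeat protein of the synapse that is needed for learning, took more reads than any other member. It had 3717, 2325, 2293 and 2261 CPM in SoLo, against 3946, 2517, 2274 and 2467 CPM in SMARTseq. The kits gave nearly the same level in each RNA sample, and RNA sample 1 was the highest in each. The log2 fold change of casy-1 was -0.08 ± 0.23 (edgeR adjusted p = 0.795).

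The order of members by abundance per length was alike in the kits at large and differed at the top. Per 1000 exonic bases casy-1 led in SoLo with 729 ± 196 CPM (SD, n = 4), followed by zig-2 with 305 ± 41.9, zig-5 with 151 ± 60.6, zig-4 with 128 ± 111 and sax-7 with 110.5 ± 24.6. The values of zig-4 and sax-7 lay within the SD of that of zig-5. This order rested on library 1: without it sax-7 had 123, zig-5 121, hmr-1 86.7, zig-8 77.7 and zig-4 72.6 CPM per 1000 bases in SoLo, an alternative chosen after seeing the data. In SMARTseq zig-2 led with 2519 ± 270 CPM per 1000 bases, followed by zig-4 with 1180 ± 780, casy-1 with 771 ± 212, zig-8 with 428 ± 30.7, zig-5 with 256 ± 125 and sax-7 with 243 ± 68.8. Without library 1 zig-4 had 790 and kept its place in SMARTseq, and sax-7 with 275 passed zig-5 with 194. cdh-1 ranked 12 of 36 in SoLo and 28 of 36 in SMARTseq, and ncam-1 ranked 16 and 8. Over the 32 tested members the log2 levels per length had Pearson's r = 0.92 and Spearman's rho = 0.87 between the kits, a description across genes that share the same RNA samples.

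In 1 random draw to an equal depth of 2354681 counts, 35, 33, 34 and 33 of the 36 members had at least 5 reads in SoLo libraries 1 to 4 and 30, 30, 31 and 31 in SMARTseq libraries 1 to 4. All members together took between 0.728% and 1.12% of a library's counts.

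Members with few exonic bases tended to be lower in SoLo. Over the 32 tested members, log2 fold change and log2 exonic length had Pearson's r = 0.60 and Spearman's rho = 0.56, and over 10636 tested protein-coding genes r = 0.30 and rho = 0.30. For the length of the 3' untranslated region r was 0.27 over the members and 0.37 over 10257 protein-coding genes. For the span of the gene in the genome r was 0.53 and 0.28. Over protein-coding genes exonic length was thus not the closest of these lengths. Genes are not independent replicates, and all of these values are descriptions. The trend over protein-coding genes was -0.69 at 1000 exonic bases and 0.90 at 8000. In the exonic length range of the tested zig genes 9.54% of protein-coding genes were called towards SoLo and 35.7% towards SMARTseq, and in the range of the tested cdh genes 33.4% and 15.6%.

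With that trend taken out as an offset, 3 members were called towards SoLo and 13 towards SMARTseq (25.6% and 23.8% of all tested genes), and 12 of the 13 calls were kept. The one lost was hmr-1, which turned to -0.17 (edgeR adjusted p = 0.352). cdh-1 stayed called at 2.15, while zig-2 and ncam-1 were at -2.36 and -2.77. cdh-4 turned to -0.92 and was then called towards SMARTseq (edgeR adjusted p = 0.0145), as were rig-1 and, at -0.86, igcm-1 (edgeR adjusted p = 0.0298). zig-1 was called towards SoLo at 1.08.

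**Figure D3:**
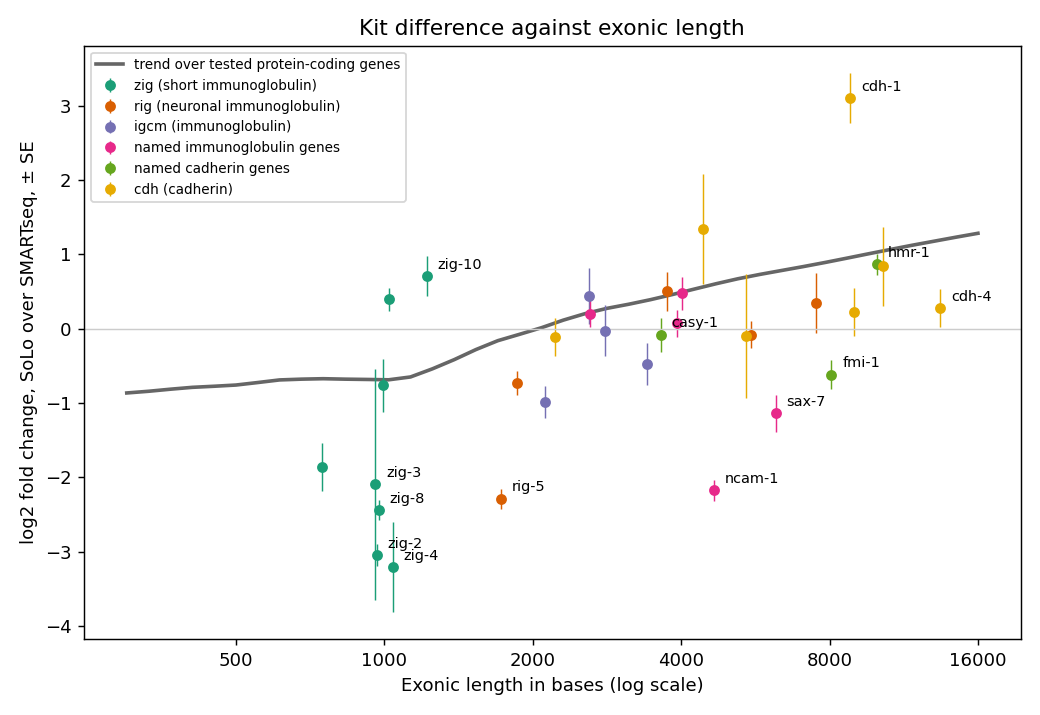
Log2 fold change, SoLo over SMARTseq (± SE, n = 4 libraries per kit), of the 32 tested adhesion genes against exonic length in bases (log scale), with the trend over tested protein-coding genes as a grey line. cdh-1 at 3.10 lies far above the line and ncam-1 at -2.18 far below it, while hmr-1 at 0.86 lies near it.

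Levels of the members also varied between RNA samples. zig-3 in library 1 was 51.8 times the highest of the other 3 libraries in SoLo and 20.1 times in SMARTseq. The size of the SoLo ratio is uncertain, as SoLo libraries 2 to 4 held only 2, 6 and 4 reads of zig-3. For zig-4 the ratios were 3.73 and 2.87, for zig-5 1.94 and 2.14, and for casy-1 1.60 and 1.57. sax-7 and rig-6 went the other way, library 1 being 0.608 and 0.639 times the lowest of the other 3 in SoLo and 0.612 and 0.701 times in SMARTseq. zig-3 and zig-4 were the only tested members for which a library was more than 2-fold past all 3 others in both kits, and RNA sample 1 did so upwards in 4.55% and downwards in 3.84% of all tested genes. In bulk samples, fewer cells of a type and less RNA per cell cannot be told apart.

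Across the 32 tested members the deviation of library 1 from its kit mean, on the log2(CPM + 1) scale, had Pearson's r = 0.83 and Spearman's rho = 0.45 between the kits, a description. For libraries 2, 3 and 4 the values were r = 0.35, 0.56 and 0.53 and rho = 0.15, 0.51 and 0.38. Library 1 was the highest of its kit in both kits for 8 members, casy-1, igcm-2, lad-2, rig-5, zig-2, zig-3, zig-4 and zig-5, and the lowest for 4, cdh-4, rig-3, rig-6 and sax-7. RNA samples 2, 3 and 4 were the highest in both kits for 1, 3 and 3 members and the lowest for 1, 2 and 5. Such counts were not worked out for all tested genes, neither for these members nor for the markers below. Over 11378 tested genes library 1 also deviated alike in the kits, with Pearson's r = 0.76. The neuronal marker sum was also highest in library 1, with 21780 CPM against 15560 to 15990 in the other SoLo libraries and 31720 CPM against 23890 to 26100 in the other SMARTseq libraries. Of its 12 genes 4 were highest there in both kits, unc-104, egl-3, egl-21 and unc-10, while 3 were lowest there in both, snb-1, ric-4 and unc-11. The intestinal sum was highest in library 1 as well, with 521 CPM against 307 to 388 in SoLo and 254 CPM against 142 to 162 in SMARTseq. Of 8 tested intestinal genes 6 were highest there in both kits. Lowest there were the hypodermal and seam sum, with 158 CPM against 278 to 314 in SoLo and 346 CPM against 1108 to 1491 in SMARTseq, and the germline sum, with 227 CPM against 271 to 361 in SoLo and 288 CPM against 322 to 535 in SMARTseq. Of 10 tested hypodermal and seam genes 7 were lowest there in both kits, but of 12 germline genes only 5. In SMARTseq sqt-3 alone had 62.5 CPM in library 1 against 430 to 664 CPM in the others. For glia, muscle and the list of sheath, excretory cell and coelomocytes library 1 was not at the same end in both kits. The part of these marker levels in the values of zig-3, zig-4, zig-5 and sax-7 was not tested.

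**Figure D4:**
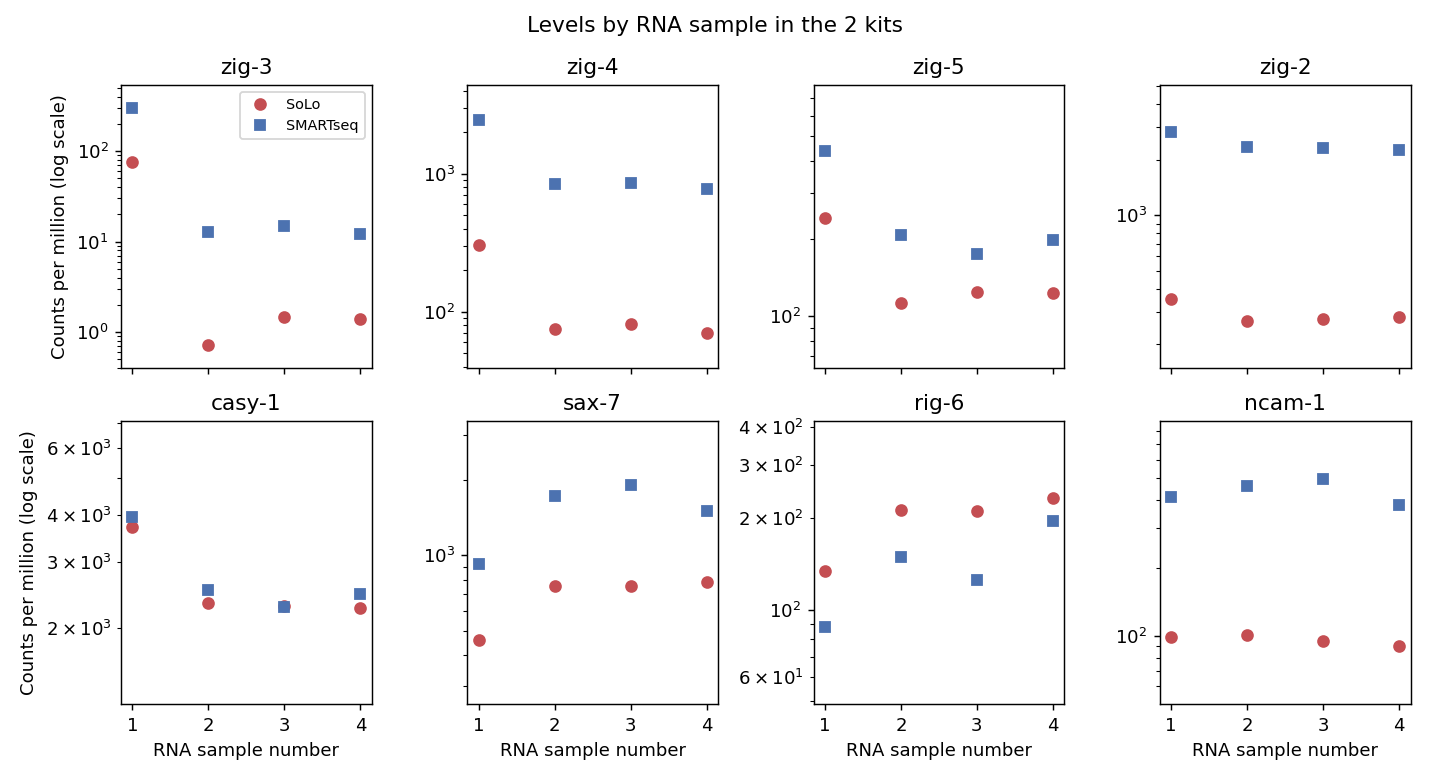
CPM (log scale) of 8 adhesion genes by RNA sample number, with SoLo libraries as red circles and SMARTseq libraries as blue squares. zig-3 is highest in RNA sample 1 in both kits, at 75.1 and 298 CPM, whereas sax-7 is lowest there, at 459 and 921 CPM.

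Partners of the adhesion proteins were read from 8 lists. Their counts in the main fit stand against the same 20.0% and 27.6% of all tested genes. The counts moved with the scaling, the length offset and the summing of RNA samples 2 to 4. The shares of all tested genes moved too, to 25.6% and 23.8% under the length offset. They were 3.39% and 5.89% with the sum, and 28.9% and 32.2% with the block. Under library totals 4318 and 2388 of the 11378 genes were called towards SoLo and SMARTseq. Under the length offset integrins and matrix genes gave 5 of 17 towards SoLo and 5 towards SMARTseq, L1 partners 2 of 7 and 2, cadherin-binding proteins 1 of 7 and 2, other immunoglobulin genes 4 of 20 and 4, and synaptic genes 1 of 12 and 4. Under library totals these 5 lists gave 13, 5, 6, 11 and 8 towards SoLo and 3, 2, 1, 1 and 2 towards SMARTseq. With RNA samples 2 to 4 summed they gave 2, 2, 0, 0 and 0 towards SoLo and 1, 1, 0, 1 and 0 towards SMARTseq. The catenins and other proteins that bind cadherins inside the cell gave 3 of 7 genes called towards SoLo and 1 towards SMARTseq. The alpha-catenin hmp-1 was higher in SoLo with 0.78 ± 0.20 (edgeR adjusted p = 0.0108), as were srgp-1 with 0.71 ± 0.20 and the p120-type catenin jac-1 with 0.53 ± 0.14. The beta-catenin hmp-2 was lower, with 67.4 ± 6.48 CPM in SoLo, against 141 ± 18.5 CPM in SMARTseq (SD, n = 4) and a difference of -1.06 ± 0.16 in log2 (edgeR adjusted p = 0.000453). Of 9 apical junction genes 2, dlg-1 and par-3, were higher in SoLo, with 0 to 4 when 1 library was left out. That count was 0 without SMARTseq library 2, 1 without SoLo library 1, 2 or 4 or SMARTseq library 3, and 4 without SMARTseq library 1.

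All 7 listed cytoplasmic partners of L1-type proteins were called in the main fit, 5 towards SoLo and 2 towards SMARTseq. The count towards SoLo was 4 or 5 when 1 library was left out, and 2 under the length offset. The ankyrin unc-44, which anchors sax-7-type proteins to the spectrin skeleton, had 1351 ± 37.0 CPM in SoLo, against 527 ± 57.5 CPM in SMARTseq, at 1.36 ± 0.12 (edgeR adjusted p = 1.92e-05). The beta-spectrin unc-70 was at 2.13 ± 0.20. stn-2, a syntrophin that binds sax-7, was lower at -2.66 ± 0.18, and so was frm-1 at -1.90 ± 0.24. sax-7 and unc-44 thus differed between the kits in opposite directions.

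The genes that act with sax-7 in dendrite branching gave 1 of 6 towards SoLo, tiam-1 with 0.86 ± 0.17, and 2 towards SMARTseq. The receptor dma-1 had 62.8 ± 8.34 CPM in SoLo, against 593 ± 92.4 CPM in SMARTseq, a difference of -3.24 ± 0.17 in log2 (edgeR adjusted p = 1.02e-06). The ligand lect-2, listed in the table as K05F1.5, was at -1.14 ± 0.27.

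Of 12 tested genes of synaptic adhesion and presynaptic assembly 3 were called towards SoLo and 2 towards SMARTseq, or 6 and 3 with the block, and 4 were higher in SMARTseq without SoLo library 1. The synaptic organiser madd-4 was at -1.87 ± 0.27, skr-1, a ubiquitin ligase component that acts with syg-1, at -1.19 ± 0.11, and itx-1 at 2.60 ± 0.53. With a mean of only 0.826 CPM in SMARTseq, itx-1 passed the filter on low counts through SoLo, so that the filter favoured this direction. The neurexin nrx-1 was higher in SoLo, with 388 ± 37.9 CPM in SoLo, against 257.5 ± 29.0 CPM in SMARTseq, at 0.59 ± 0.14 (edgeR adjusted p = 0.00627). It was named after its values were seen. The call of nlr-1, at 0.59 ± 0.22, was lost without any SMARTseq library and without SoLo library 2, 3 or 4.

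Planar polarity genes and Wnt receptors gave 3 of 11 in each direction, led by the frizzled receptors mom-5 at 2.95 ± 0.27 towards SoLo and mig-1 at -1.73 ± 0.21 towards SMARTseq. The count towards SMARTseq was 1 without any SoLo library or without SMARTseq library 2, and the count towards SoLo was 1 without SMARTseq library 3. Of 20 tested other immunoglobulin genes 5 were called towards SoLo and 1 towards SMARTseq, or 7 and 3 with the block. The count of 5 was 3 without SoLo library 3 or without SMARTseq library 2 or 3, and the count of 1 was 2 without SoLo library 1 or 4 or without SMARTseq library 1. That 1 gene, oig-5, which encodes a protein with a single immunoglobulin domain, had 69.8 ± 11.5 CPM in SoLo, against 929 ± 152 CPM in SMARTseq, a difference of -3.73 ± 0.20 in log2 (edgeR adjusted p = 9.7e-07). igdb-2 was at 2.17 ± 0.71, a call lost without any SoLo library or SMARTseq library 2 or 3, and was at 2.95 without SMARTseq library 1. The peroxidasin pxn-1 was at 1.45 ± 0.34 and the matrix protein papilin, mig-6, at 1.32 ± 0.21.

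Integrins, dystroglycans and matrix genes gave 9 of 17 towards SoLo and 3 towards SMARTseq. The laminin chains lam-2, lam-3 and lam-1 were at 4.29 ± 0.68, 4.04 ± 0.59 and 3.64 ± 0.48, with mean levels of 0.954, 0.197 and 1.15 CPM in SMARTseq, and lam-2 was at 5.29 without SMARTseq library 2. These laminin genes passed the filter on low counts through SoLo, so that the filter favoured this direction. The glypican lon-2 was lower, with 11.4 ± 0.533 CPM in SoLo, against 106 ± 10.7 CPM in SMARTseq, at -3.21 ± 0.17 (edgeR adjusted p = 9.62e-07).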

How the data were processed

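The deposited table held whole-number gene counts for the 8 libraries, left unscaled by the authors. Per the submitters' processing notes, STAR, SAMtools, featureCounts and build WBcel235 were used, with no versions or settings. Strand setting and the treatment of multi-mapped reads or molecular identifiers are unknown here, so values of near-identical or overlapping genes are uncertain.

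Lengths and positions came from Ensembl release 115 (WBcel235), joined by name (44738 of 46748 genes, 96.2% of counts, all 36 members). Coordinates are 1-based, and exonic length is the union of annotated exons. The main test was edgeR (version 4.0.16, R 4.3.3), quasi-likelihood, with TMM, filterByExpr by kit and no block, on all 8 libraries, with Benjamini-Hochberg adjustment over 11378 genes. An SE is |log2 fold change| divided by √F, an approximation. The test was checked on simulated data with known changes. CPM use TMM factors. Thinning used a fixed seed.

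Numbers pair the libraries: each RNA sample was split between the kits, and same-numbered libraries deviated together over 11378 genes (r = 0.76, 0.37, 0.36 and 0.32 for numbers 1 to 4), although SoLo library 4 correlated best with SMARTseq library 3. Alternatives were DESeq2 1.42.0, scaling by totals, no filter, a filter of 50 reads in 4 libraries, the replicate block, leaving out RNA sample 1 or 1 library, summing RNA samples 2 to 4, and an offset for exonic length. Any member may be named. Per-library values are given for the 8 genes taken by name, up to 8 called members each way and the 3 most abundant per length in each family; of a partner list, the 4 called genes with the largest change. The members and lists were chosen with earlier results of these data known.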

Additional observations from a re-analysis of the deposited data

Results flagged for a closer look

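Within a kit, 12 of 64 groups of 4 values held a library far from the other 3, by Dixon's ratio at its 95% limit. That limit flags about 1 in 20 independent groups, but these groups share libraries and RNA samples. The share of flagged groups over all tested genes was not worked out, and RNA sample 1 stood apart beyond the members as well. The count is therefore not a result about the members alone. Library 1 was the distant one in 11 of the 12. In SoLo, library 1 was high for zig-3 (75.1 CPM against 0.713 to 1.45), zig-4 (305 against 69.9 to 81.7), zig-5 (240 against 113 to 124), zig-2 (354 against 267 to 281) and casy-1 (3717 against 2261 to 2325), and low for sax-7 (459 against 754 to 784) and fmi-1 (145 against 196 to 206). In SMARTseq, library 1 was high for zig-3 (298 against 12.1 to 14.8), zig-4 (2441 against 770 to 852), zig-5 (439 against 175 to 206) and casy-1 (3946 against 2274 to 2517). The exception was cdh-7 in SMARTseq library 4, with 3.50 CPM against 0.236 to 0.530.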

How the results depend on the processing

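The count of members higher in SoLo, 3 of 32, became 12 with library totals as scaling, 7 with the replicate block, 6 without RNA sample 1, 1 with RNA samples 2 to 4 summed, 7 with that sum and the replicate block, and 6 with DESeq2. Over all genes tested the shares towards SoLo were 38.0% with library totals, 22.9% with the sum and the block and 17.7% with DESeq2, the last 2 beside 7 and 6 of 34 members. The count of 3 ranged over 2 to 5 when 1 library was left out. The count higher in SMARTseq, 10, became 6 with library totals and 4 with the sum, and ranged over 9 to 11. The median log2 fold change of the members, -0.08, became 0.46 with library totals, 0.027 without a filter on low counts, 0.11 with the sum, 0.12 with the sum and the block, 0.13 with DESeq2 and -0.59 with the length trend taken out, and ranged over -0.13 to 0.083 with 1 library left out. The 13 calls were all kept with the block, 12 were kept with DESeq2, and 11 were kept in every fit with 1 library left out.

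Signs turned for members whose change had not been called, and for hmr-1. With library totals casy-1 was at 0.46, cdh-10 at 0.42, cdh-9 at 0.43, igcm-1 at 0.060, igcm-3 at 0.52 and rig-1 at 0.46. Without a filter casy-1 was at 0.0052, igcm-3 at 0.049 and rig-1 at 0.0057. With the replicate block cdh-10 was at 0.49 and igcm-3 at 0.015. With RNA samples 2 to 4 summed casy-1 was at 0.041, cdh-10 at 0.38, igcm-3 at 0.036 and rig-1 at 0.076, and with the block added at 0.045, 0.73, 0.014 and 0.076. With DESeq2 casy-1 was at 0.032, igcm-3 at 0.075 and rig-1 at 0.031. With the length trend taken out cdh-12 was at -0.74, cdh-3 at -0.20, cdh-4 at -0.92, hmr-1 at -0.17, lad-2 at -0.40, rig-4 at -0.53, syg-1 at -0.016 and syg-2 at -0.014. With 1 library left out casy-1 ranged over -0.25 to 0.11, cdh-10 over -0.51 to 0.996, cdh-12 over -0.062 to 0.35, cdh-9 over -0.26 to 0.015, igcm-3 over -0.25 to 0.23, lad-2 over -0.062 to 0.18, rig-1 over -0.19 to 0.016 and zig-3 over -6.06 to 0.57. The cause of these shifts was not tested. Depth limits what can be seen of cdh-5, cdh-8, zig-6 and zig-9.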
